A study of Mus musculus with 4 samples.

Results

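The genes described here are 53 genes of the G2 phase and mitosis, chosen by name as regulators of mitotic entry and as parts of the spindle, the kinetochore and condensin. Of these, 52 had at least 1 probe set whose annotation gives that gene as its only symbol (122 probe sets in all), out of 18194 genes so named on the array. The probe set with the highest mean log2 signal stood for its gene, and 51 of the 53 passed the filter on low signals, as did 12680 of all genes. Kif15 did not pass, and Ccnb1, which encodes cyclin B1, was not analysed here because no probe set carried it as its only symbol. Affymetrix 3' arrays were run on Lin-Sca-1+c-Kit+ (LSK) bone marrow cells, the fraction that holds haematopoietic stem cells and early progenitors, from C57BL/6 mice. In one group of 2 arrays the mice had been reconstituted with necdin null fetal liver cells, and in the other, also of 2 arrays, with wild type fetal liver cells. Mice of both groups were then irradiated sublethally with 6.5 Gy, so no array shows cells without irradiation. The time from irradiation to collection, the share of host cells left in the marrow, the necdin allele and whether an array holds 1 mouse or a pool are not given in the sources used here. If the replicates are not separate animals, p-values measure a spread that may be technical. The comparison asks how loss of necdin changes gene expression in irradiated LSK cells.

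Cells enter mitosis when CDK1 bound to cyclin B becomes active, and they leave it when the anaphase-promoting complex marks cyclin B and securin for destruction. Many of the genes needed in between are switched on together late in the cell cycle by the MuvB complex with the transcription factors B-MYB and FOXM1, and their transcripts are low in resting cells. Most haematopoietic stem cells are at rest while progenitors in the same LSK gate divide, and DNA damage halts cells before mitosis. In a bulk sample, fewer dividing cells and less RNA per dividing cell cannot be told apart.

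The median signal of an array lay between 53.7 and 63.2. The 10 marker genes of stem and early progenitor cells that were measured all passed the filter; Ly6a, which encodes Sca-1, was not analysed here. Ndn, the gene of necdin, was lower on both necdin null arrays. Its main probe set gave 55.4 and 105.0 there, while the wild type signals were 252.5 and 255.5, a log2 difference of -1.68. Every other Ndn probe set above the filter fell further, with log2 differences from -5.89 to -4.03. On those probe sets necdin null signals were 17.6 at most, and wild type signals were 102.96 at least. In all, 6 of the 8 Ndn probe sets had groups that did not overlap, each lower in necdin null cells. Necdin null replicate 2 had the highest ratios of 3' to 5' signal, a sign of RNA or labelling quality. Its ratio for Gapdh was 15.8, against 9.96 to 11.7 elsewhere, and that for actin was 14.5, against 9.21 to 12.4. In both groups the replicate 2 array had the higher ratio for both genes. In wild type cells these were 11.7 against 9.96 for Gapdh and 12.4 against 9.97 for actin.

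No G2/M gene passed the test between necdin null and wild type cells (limma, Benjamini-Hochberg adjustment over all genes, threshold 0.05), and none of all genes did (0%). The smallest adjusted p of a G2/M gene was 0.999. At an unadjusted limma p under 0.05 there was 1 of 51, Mki67, against 3.02% of all genes. The 51 genes lay close to 0, from -0.66 to 0.35 on the log2 scale, with 30 lower and 21 higher in necdin null cells. Their median log2 difference was -0.05, beside -0.03 over all genes. None differed 2-fold, against 4.52% of all genes, and the median size of the difference was 0.17, beside 0.21 over all genes. The 95% interval of the difference lay within 2-fold on both sides for 40 of the 51. For 11 it reached past a 2-fold decrease and for 0 past a 2-fold increase.

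**Figure D1:**
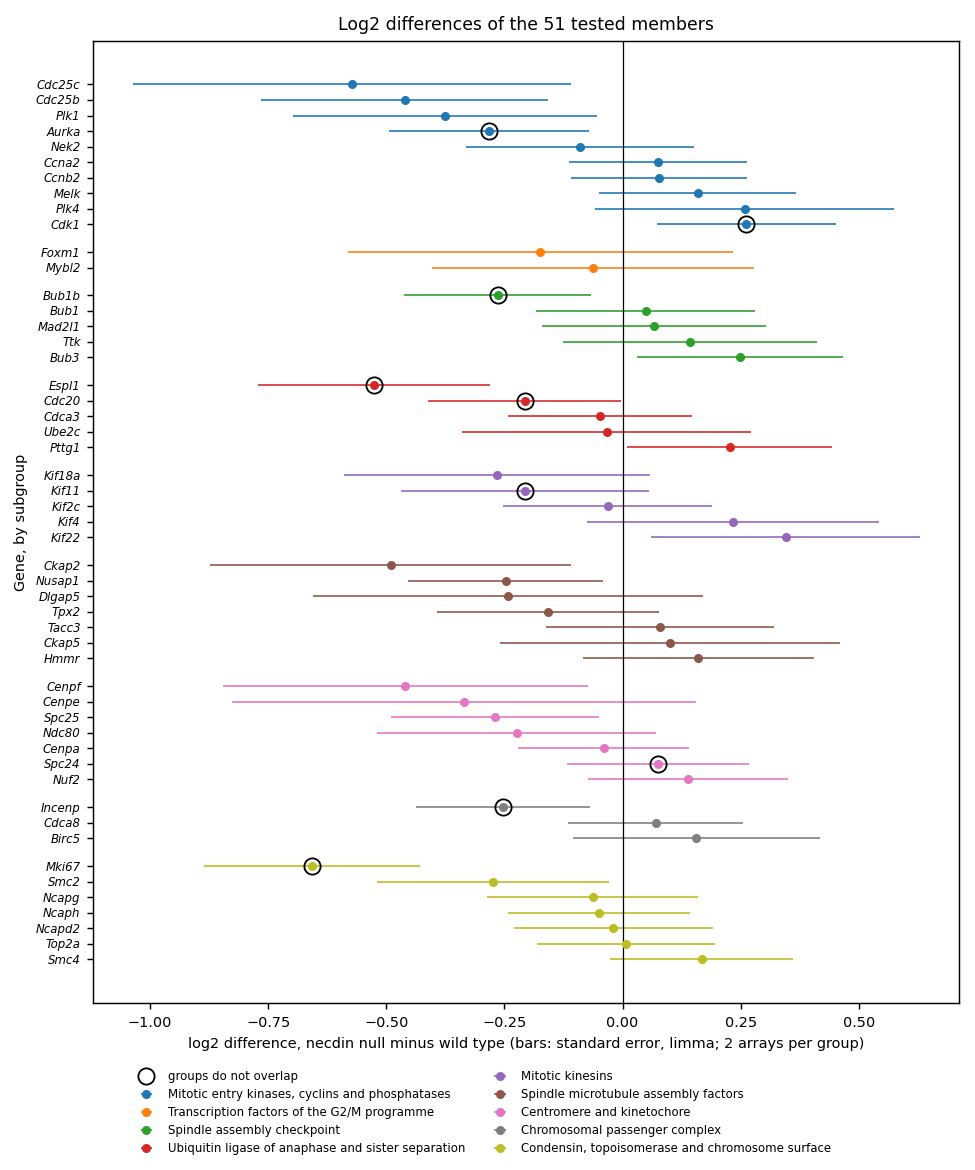
Log2 difference, necdin null minus wild type, of the 51 tested genes (horizontal axis), grouped by role and ordered within each role. Bars are limma standard errors with 2 arrays per group, and black rings mark the 9 genes whose groups did not overlap; the differences run from -0.66 for Mki67 to 0.35 for Kif22.

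The groups did not overlap for 9 of the 51 genes. Of these, 7 were lower on both necdin null arrays (Mki67, Espl1, Aurka, Bub1b, Incenp, Cdc20 and Kif11), where 17.7% of all genes were lower in this way. The other 2, Cdk1 and Spc24, were higher, against 12.8% of all genes. As shares of the 51 these are 13.7% and 3.92%, so the lower share was no larger than that of all genes. The difference between the groups exceeded the difference between replicates of each group for 5 of the 9, namely Mki67, Espl1, Aurka, Incenp and Cdk1.

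The split depended on the scaling, the probe set and the array. With median centring of the arrays 38 genes were lower and 13 higher, with a median of -0.13, beside -0.11 over all genes. Of the 51, 7 lower and 0 higher genes then had groups that did not overlap (13.7% and 0%, against 23.2% and 7.42% of all genes). With the mean of all probe sets of a gene 23 were lower and 28 higher, with a median of 0.01, beside -0.02 over all genes. Here 7 lower and 8 higher genes had groups that did not overlap (13.7% and 15.7%, against 17% and 14.6% of all genes). A group left with 1 array overlaps less often: without necdin null replicate 1 the groups lay apart for 28 lower and 8 higher genes (54.9% and 15.7%, against 38.4% and 30.3% of all genes), and without wild type replicate 2 for 25 and 9 (49.0% and 17.6%, against 35.9% and 30.1%). Without necdin null replicate 2 they lay apart for 10 lower and 14 higher genes (19.2% and 26.9%, against 32.1% and 27.7%), and without wild type replicate 1 for 14 and 12 (27.5% and 23.5%, against 36.9% and 29.6%). The median difference was 0.02 without necdin null replicate 2, a change of sign, and lay between -0.13 and -0.01 without each of the other arrays.

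**Figure D2:**
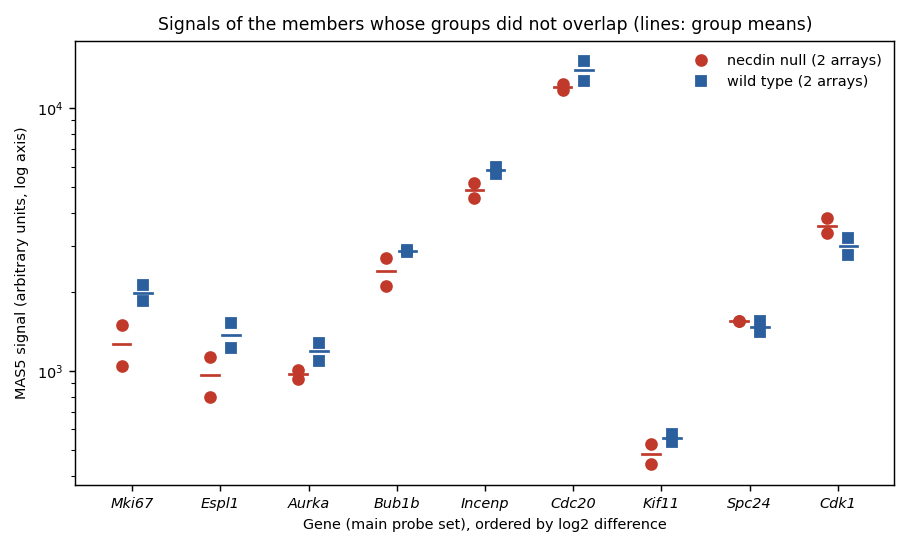
MAS5 signal (log axis) of the 9 genes whose groups did not overlap, with necdin null arrays as circles, wild type arrays as squares and group means as lines. Mki67 shows the widest gap, while the necdin null arrays of Spc24 sit at 1551 and 1557, next to a wild type array at 1551.

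The promoters of these genes share short sequences that the choice of genes did not use. MuvB binds a cell cycle element with the core TTTGAA, which often lies near the start of transcription behind 1 or more CCAAT boxes, the binding site of the factor NF-Y. Promoters of 45 of the 53 genes were found in RefSeq's GRCm38.p6 sequences, each with 250 bases before and 50 after the start. TTTGAA on either strand was found for 29 of 45 genes (64.4%), against 20.2% of all 27025 genes in the table. CCAAT on either strand was found for 31 of 45 (68.9%, against 41.1%), and both motifs for 26 (57.8%, against 7.97%). Within 50 bases of the start, TTTGAA was found for 25 of 45 genes (55.6%, against 5.72%). The related core TTTAAA was found for 11 of 45 (24.4%, against 14.9%). In the stretches shown no TTTGAA shares a base with a CCAAT, and a match is a description of the letters, not a measured site.

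The stretches shown are those of the genes whose groups did not overlap and whose TTTGAA lies before the start: 4 of the lower genes and Cdk1. Each is the 250 bases before the start, 5' to 3' on the strand of the gene, with TTTGAA (or TTCAAA, the same motif on the other strand) and CCAAT (or ATTGG) in capitals. The regions are chr7:135716380-135716629 (minus strand) for Mki67, chr15:102296043-102296292 (plus strand) for Espl1, chr4:118437344-118437593 (minus strand) for Cdc20, chr19:37376132-37376381 (plus strand) for Kif11 and chr10:69352913-69353162 (minus strand) for Cdk1.
Mki67: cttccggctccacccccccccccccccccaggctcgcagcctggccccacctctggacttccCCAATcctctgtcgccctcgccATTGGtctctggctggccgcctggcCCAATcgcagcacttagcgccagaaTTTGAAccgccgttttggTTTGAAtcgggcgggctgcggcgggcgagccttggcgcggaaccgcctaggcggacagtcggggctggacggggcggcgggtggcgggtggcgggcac
Espl1: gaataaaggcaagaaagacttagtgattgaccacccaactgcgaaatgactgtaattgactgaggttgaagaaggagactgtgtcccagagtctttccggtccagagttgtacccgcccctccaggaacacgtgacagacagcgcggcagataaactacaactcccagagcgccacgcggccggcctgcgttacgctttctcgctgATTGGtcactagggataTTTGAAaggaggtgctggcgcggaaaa
Cdc20: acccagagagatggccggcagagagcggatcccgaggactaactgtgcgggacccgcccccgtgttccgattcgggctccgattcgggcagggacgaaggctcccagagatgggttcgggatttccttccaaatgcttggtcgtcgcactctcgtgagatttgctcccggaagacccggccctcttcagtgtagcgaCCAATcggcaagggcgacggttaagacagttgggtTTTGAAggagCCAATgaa
Kif11: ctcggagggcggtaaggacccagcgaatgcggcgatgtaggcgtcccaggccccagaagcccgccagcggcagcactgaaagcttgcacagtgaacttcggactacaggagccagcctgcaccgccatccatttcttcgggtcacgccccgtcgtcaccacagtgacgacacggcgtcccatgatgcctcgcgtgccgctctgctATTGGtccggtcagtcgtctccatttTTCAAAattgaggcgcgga
Cdk1: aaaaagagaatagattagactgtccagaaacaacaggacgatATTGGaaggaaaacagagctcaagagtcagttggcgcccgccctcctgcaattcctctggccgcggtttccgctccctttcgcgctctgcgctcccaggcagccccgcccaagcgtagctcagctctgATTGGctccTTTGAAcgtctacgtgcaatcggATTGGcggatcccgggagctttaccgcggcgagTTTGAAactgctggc
Cdk1 holds 2 TTTGAA, the nearer beginning 15 bases before the start, and 3 CCAAT. In Mki67 the 2 TTTGAA begin 116 and 98 bases before the start and follow 3 CCAAT. Espl1, Cdc20 and Kif11 hold 1 TTTGAA each, beginning 27, 18 and 19 bases before the start. Aurka and Bub1b hold 1 each after the start, and Incenp and Spc24 had no entry. Genes with and without the motif lay on both sides of 0: of 28 tested genes with TTTGAA 18 were lower and 10 higher in necdin null cells (median log2 difference -0.04, from -0.66 to 0.35), and of 15 without it 7 were lower and 8 higher (median 0.05, from -0.46 to 0.26).

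Among the kinases, cyclins and phosphatases of mitotic entry, 5 of 10 tested genes were lower and 5 higher in necdin null cells. Cdk1, the kinase that drives entry into mitosis, gave 3818 and 3342 on the necdin null arrays against 3206 and 2767 on the wild type arrays. Its groups did not overlap, with a log2 difference of 0.26 (standard error 0.19, 95% interval -0.17 to 0.69). Within replicate 1 it was 0.25, and within replicate 2 it was 0.27. It stayed above 0 under every alternative run, from 0.16 without wild type replicate 2 to 0.37 without wild type replicate 1.

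Aurka, the kinase of the spindle poles, gave 1012 and 935 against 1280.0 and 1094, all on 1 probe set above the filter. Both necdin null arrays were the lower ones, by 0.28 on the log2 scale (standard error 0.21), and with 1 array left out the difference ran from -0.39 to -0.17 (lowest without wild type replicate 2, highest without its replicate 1). Plk1, the polo kinase that promotes entry and spindle assembly, gave 720 and 449 against 917 and 595, so the groups overlapped. Its log2 difference was -0.37 (standard error 0.32), and the replicate 2 array was the lower one in both groups. Dropping the lower necdin null or the higher wild type array brought it to -0.037 or -0.064, and dropping the higher necdin null or the lower wild type array to -0.71 or -0.69. The same order of arrays was seen for Cdc25b, a phosphatase that activates CDK1, with 811 and 512 against 1078 and 733 (log2 difference -0.46, standard error 0.30). With the same arrays dropped in turn it was -0.13, -0.18, -0.79 and -0.74. Cdc25c, a second such phosphatase, gave 737 and 241 against 686 and 578. Only necdin null replicate 2 was low: the log2 difference of -0.57 (standard error 0.46) became 0.23 without it. The remaining 5 genes, Ccnb2, Ccna2, Plk4, Nek2 and Melk, had differences from -0.09 to 0.26. Ccnb2 and Ccna2 encode the other mitotic cyclins measured here, and both were among the 4 of these 5 that were higher.

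The groups overlapped for both transcription factors of the programme. Foxm1, which encodes FOXM1, gave 252 and 149 on the necdin null and 196 and 244 on the wild type arrays, so the lowest and the highest array belonged to the same group (log2 difference -0.17, standard error 0.41). Of its 3 probe sets above the filter 2 were lower in necdin null cells, and without necdin null replicate 2 the difference was 0.20. Mybl2, which encodes B-MYB, gave 248 and 227 against 261 and 236 (-0.06, standard error 0.34). Its sign turned without necdin null replicate 2 and without wild type replicate 1, at 0.0020 and 0.0084.

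The spindle assembly checkpoint holds back anaphase until every chromosome is attached. Bub1b, which encodes the checkpoint protein BubR1, was its only lower gene among 5, with 2699.8 and 2099.6 on the necdin null and 2879.9 and 2842 on the wild type arrays. The groups were apart, the wild type arrays lay close together, and the log2 difference was -0.26 (standard error 0.20). Of its 3 probe sets above the filter 2 were lower, and the mean of all its probe sets gave 0.19. The main probe set gave -0.45 without necdin null replicate 1 and -0.08 without its replicate 2. Bub1, Bub3, Mad2l1 and Ttk had differences from 0.05 to 0.25, with overlapping groups.

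Anaphase starts when Cdc20 activates the anaphase-promoting complex, and separase, encoded by Espl1, then cuts the cohesin rings that join sister chromatids. Espl1 gave 1131 and 793 on the necdin null and 1522 and 1227 on the wild type arrays. Both necdin null arrays lay below both wild type arrays, with a log2 difference of -0.53 (standard error 0.25, 95% interval -1.08 to 0.03). Within replicate 1 it was -0.43, and within replicate 2 it was -0.63. It stayed below 0 under every alternative, from -0.78 without necdin null replicate 1 to -0.27 without necdin null replicate 2. Cdc20 gave 11725 and 12331 against 15144 and 12722 (-0.21, standard error 0.20). In this gene all 3 probe sets above the filter had both necdin null arrays below both wild type arrays, with differences of -0.21, -0.44 and -0.56. Wild type replicate 1 was the highest array, and without it the main probe set gave -0.08. Ube2c, the ubiquitin-conjugating enzyme of the complex, Pttg1, which encodes securin, and Cdca3 lay between -0.05 and 0.23.

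Kinesins are motors that slide and shorten spindle microtubules. Kif11, the motor that pushes the spindle poles apart, gave 526 and 442 on the necdin null and 575 and 539 on the wild type arrays (log2 difference -0.21, standard error 0.26). The groups were apart by 13 signal units only, and the probe sets disagreed. Another probe set was lower at -0.32, and the other one was higher on both necdin null arrays at 1.02, so the mean of all 3 was 0.16. Without necdin null replicate 2 the probe set at -0.32 became the brightest, and it gave 0.0057. On the main probe set necdin null replicate 1 was still below both wild type arrays. Kif22, a chromosome-arm motor, had the highest difference of all the genes, 0.35 (standard error 0.28), with 6159.6 and 5973 against 3459.6 and 6586. Wild type replicate 1 alone was low, and without it the difference was -0.12. Its other 2 probe sets were lower, at -0.31 and -0.44. Kif2c, Kif4 and Kif18a lay between -0.27 and 0.23. Kif15, below the filter, gave 38.7 and 7.07 on the necdin null and 30.3 and 40.1 on the wild type arrays.

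Spindle microtubule assembly factors were split, 4 lower and 3 higher. Ckap2, a protein that stabilises spindle microtubules, gave 545 and 305 on the necdin null and 766 and 431 on the wild type arrays (log2 difference -0.49, standard error 0.38). The groups overlapped, since each replicate 2 array was far below its replicate 1 array, and the difference was -0.49 within each replicate number. Dropping the lower necdin null or the higher wild type array brought it to -0.076 or -0.079, and dropping the other array of either group brought it to -0.91 or -0.90. Tpx2, Nusap1, Hmmr, Ckap5, Dlgap5 and Tacc3 lay between -0.25 and 0.16, and their groups overlapped.

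Centromere and kinetochore genes had the lowest median of the 9 roles, -0.22, with 5 of 7 lower, and none was lower with groups apart. Cenpf, a kinetochore protein that builds up in G2, gave 279 and 171 against 256 and 355 (log2 difference -0.46, standard error 0.39). Leaving out the replicate 1 array gave -0.81 (necdin null) or -0.69 (wild type), and leaving out the replicate 2 array gave -0.11 or -0.23. Spc25 and Spc24, subunits of the NDC80 complex that grips microtubules, went opposite ways. Spc25 gave 1821 and 1389.7 against 2133 and 1727 (-0.27, standard error 0.22), and the mean of its 2 probe sets was 0.015, a change of sign. With 1 array left out the main probe set ran from -0.46 without necdin null replicate 1 to -0.08 without its replicate 2, with -0.12 and -0.42 without wild type replicates 1 and 2. Spc24 gave 1557 and 1551 against 1551 and 1403. Its groups were apart by less than 1 signal unit, its log2 difference was 0.08 (standard error 0.19), and with median centring it was -0.0054. Cenpa, the histone variant of the centromere, Cenpe, Nuf2 and Ndc80 lay between -0.34 and 0.14. The median of this role was -0.07 without necdin null replicate 1 and -0.08 without necdin null replicate 2. It was 0.01 without wild type replicate 1, -0.23 without wild type replicate 2 and -0.30 with median centring.

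The chromosomal passenger complex corrects faulty attachments and later directs cytokinesis. Incenp, its scaffold, gave 4549.9 and 5196 on the necdin null and 5645 and 5954 on the wild type arrays. Both necdin null arrays were lower, with a log2 difference of -0.25 (standard error 0.18), and another probe set also had groups apart in this direction, at -0.45. The last one above the filter was higher, at 0.51, with overlapping groups. Birc5, which encodes survivin, and Cdca8, which encodes borealin, were at 0.16 and 0.07. The kinase of the complex, Aurkb, was not among the 53 genes. It gave 2733 and 2167 against 3575 and 3355, and both its probe sets were lower with groups apart, at -0.51 (standard error 0.20) and -0.35.

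Of the genes of chromosome structure, Mki67 had the largest difference. Its protein Ki-67 coats mitotic chromosomes and is the common marker of dividing cells. Mki67 gave 1049.6 and 1493 on the necdin null and 2117 and 1846 on the wild type arrays, means of 1271 ± 313 and 1981 ± 192 (SD, n = 2 each). Necdin null signals were 0.63 of wild type on the scale of the fit. The log2 difference was -0.66 (standard error 0.23, 95% interval -1.18 to -0.14), and it did not pass over all genes (limma adjusted p = 0.999; 0.28 was the smallest adjusted p of any of the 51 genes over the alternatives). Within replicate 1 it was -1.01, and within replicate 2 it was -0.31. Over the alternatives it ran from -0.91 without necdin null replicate 2 to -0.40 without necdin null replicate 1. A single probe set measured it, so no second one could be set beside it.

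The condensin subunits, which compact chromosomes, and Top2a, the topoisomerase that untangles them, did not share the size of that difference. Ncapd2, Ncapg, Ncaph, Smc2, Smc4 and Top2a lay between -0.27 and 0.17, and all 6 had overlapping groups. Top2a gave 6642 and 5549 on the necdin null and 6055 and 6027 on the wild type arrays. Necdin null arrays were thus both the highest and the lowest of the 4.

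Arrays of the same group differed in these genes. The median difference between replicates 2 and 1 was -0.19 in necdin null and -0.18 in wild type cells, beside -0.03 and 0.01 over all genes. The replicate 2 array was lower in both groups for 28 of the 51 genes (54.9%, against 29.0% of all genes) and higher in both for 5. In mitotic entry genes this held for 8 of 10, and in spindle checkpoint genes for 1 of 5. Necdin null replicate 2 was the lowest of the 4 arrays for 25 genes (49.0%, against 31.9% of all genes), and wild type replicate 1 was the highest for 24 (47.1%, against 26.4%). Marker genes of some other cells differed with the replicate number. Those of neutrophils also differed between necdin null and wild type arrays of the same replicate number. The summed signal of 11 neutrophil and precursor markers, all above the filter, was 98657 and 202040 in necdin null and 77202 and 138915 in wild type cells. Within each replicate number the necdin null sum was the higher one, and 10 of the 11 genes were higher in necdin null cells in both pairs (90.9%, against 21.9% of all genes), with a median log2 difference of 0.41. Without pairing by replicate number the sums overlapped. Of the 11 genes 3 were higher with groups apart (27.3%, against 12.8% of all genes), and 0 were called. The summed signal of the 10 stem and early progenitor markers was 49408 and 45793 against 55217 and 42464. Of 8 measured B lineage markers 7 passed the filter, and their sum was 1278 and 1758 against 1247 and 2677. Both replicate 2 arrays were thus the higher ones for neutrophil and B lineage markers and the lower ones for progenitor markers. They were also higher for the sums of erythroid and monocyte markers, and lower for that of mast cell markers. Sums of megakaryocyte, T and NK, and stromal markers changed in opposite directions in the groups. The 3' to 5' ratios for Gapdh and actin were higher on both replicate 2 arrays as well. The part of other cells and of RNA or labelling quality in the signals of the G2/M genes was not tested.

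**Figure D3:**
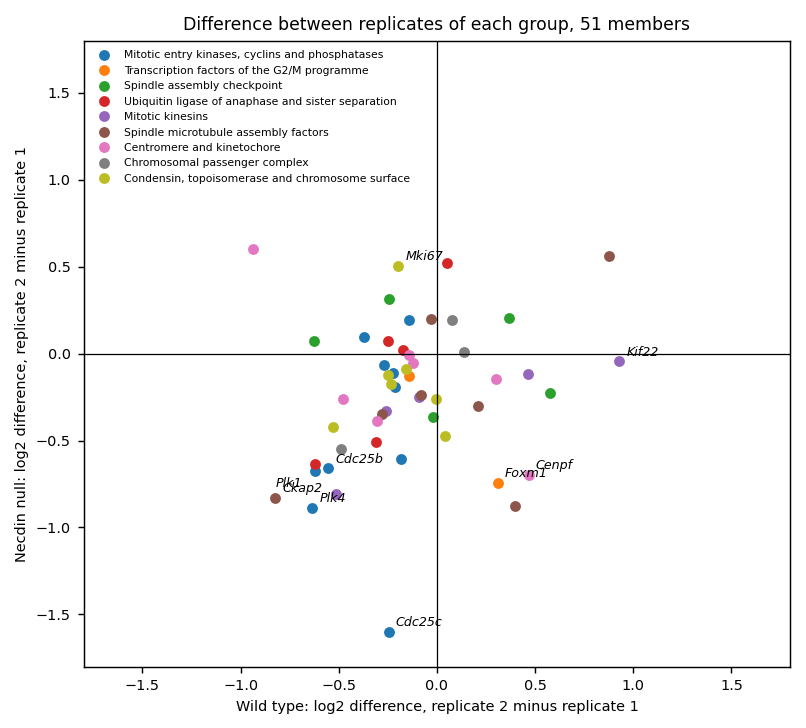
Log2 difference between replicate 2 and replicate 1 in wild type (horizontal axis) and necdin null cells (vertical axis), 1 point per gene, coloured by role. The lower left part, where replicate 2 was lower in both groups, holds 28 of the 51 genes and the upper right 5.

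Within a replicate number, 22 of the 51 genes were lower in necdin null cells in both pairs of arrays (43.1%, against 28.9% of all genes) and 7 were higher in both (13.7%, against 21.9%). The median difference of the 51 genes was -0.07 within replicate 1 and -0.12 within replicate 2. The labels do not say that arrays of the same number form a pair. Without pairing, 7 of the 51 were lower with groups apart (13.7%, against 17.7% of all genes).

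**Figure D4:**
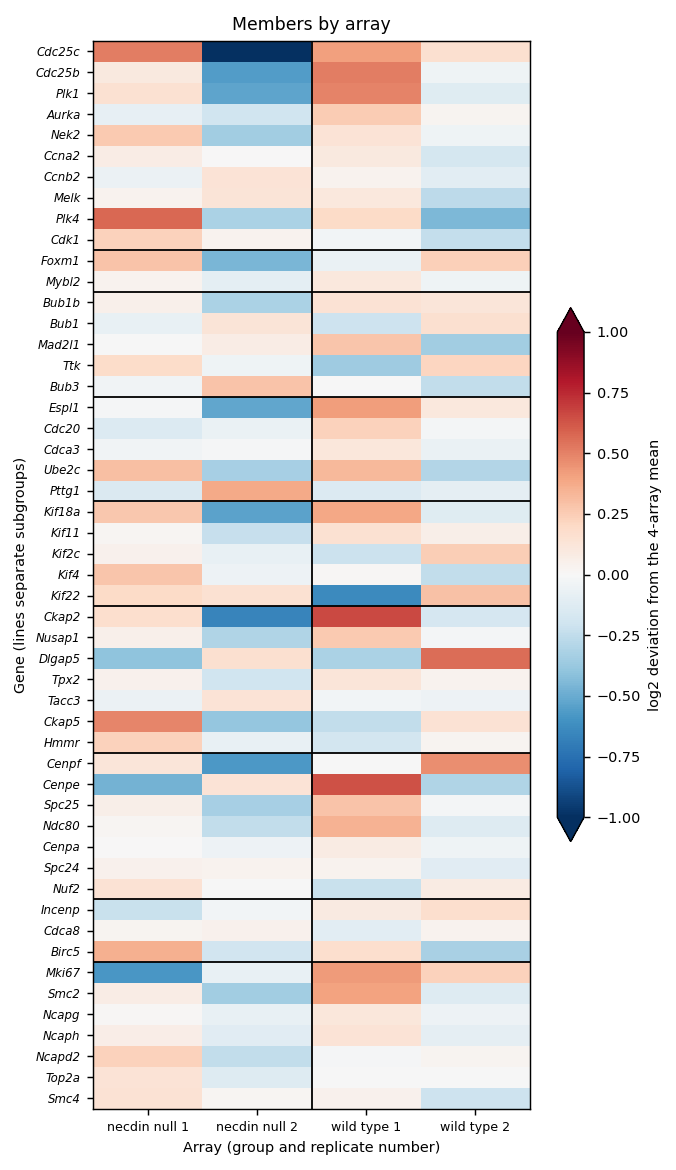
Log2 deviation of each gene (rows, grouped by role) from its mean over the 4 arrays (columns); red is above and blue below the mean, and the colours end at 1 on either side. The column of necdin null replicate 2 holds the lowest value of 25 rows and that of wild type replicate 1 the highest value of 24.

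Probe sets of 1 gene often disagreed. Of the 122 probe sets 108 were above the filter, 58 lower and 50 higher in necdin null cells, with 13 and 8 whose groups did not overlap. These are 12.04% and 7.41% of the 108, against 16.9% and 14.3% of all 22557 probe sets above the filter with a single gene symbol. Of the 34 genes with 2 or more such probe sets, all pointed the same way for 14. The matching share over all genes was not counted, so whether these genes differ from others in this is not known.

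Further genes of the same processes, none of them among the 53, gave no call either. Of 26 other centromere and kinetochore genes 9 were lower with groups apart and 2 higher (34.6% and 7.69%), where 17.7% of all genes were lower and 12.8% higher in this way. Kntc1, a checkpoint protein at the kinetochore, was at 0.54, and Nsl1, a subunit of the MIS12 complex, at -0.50. Of 12 condensin II and cohesin genes 1 was lower and 5 were higher with groups apart (8.33% and 41.7%, against the same 17.7% and 12.8%). Here Smc3, a cohesin core subunit, was at -0.36 and Pds5b, a cohesin regulator, at 0.37. Of 26 other genes of entry control and anaphase, 4 were lower and 4 higher with groups apart (15.4% each); Gtse1, a G2 and S phase protein that restrains p53, was at -0.86. Of 12 cytokinesis genes 7 were lower and 5 higher in necdin null cells. The groups were apart for 1 lower gene, Racgap1 at -0.52, and for 1 higher gene, Gas2l3 at 1.61 (8.33% each). Gas2l3 was 1 of the 3 genes called over all genes when the replicate number was a block. Among 8 DREAM and MuvB genes 7 had a positive and 1 a negative difference. The groups were apart for 1 lower gene, Lin37 at -0.53, and for 1 higher gene (12.5% each), while Rbbp4 was at 0.20 with overlapping groups. DNA replication genes, which act earlier in the cycle, had 4 of 28 lower and 5 higher with groups apart (14.3% and 17.9%), with Gins1 at -0.35 and Fen1 at 0.43 and a median of -0.03. Probe sets above the filter disagreed in direction for Nsl1, Smc3, Pds5b, Gas2l3 and Rbbp4. In the replication genes the replicate 2 array was lower in both groups for 8 of 28 (28.6%, against 29.0% of all genes).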

How the data were processed

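Signals of 45101 probe sets were used from 4 arrays. The deposited intensity values are MAS5 signals on a linear scale, per the submitters' processing notes, with no version given in the sources used here; the mean after trimming 2% at each end is 500.004 on every array. Gene names come from the platform annotation, in which 34958 probe sets had 1 symbol, 932 several and 9211 none, and only the first were named. Values were analysed as log2(signal + 3.80), the pseudocount being the 10th percentile of all values, so differences of low genes are understated. The brightest probe set by mean log2 value stood for a gene, chosen anew when an array was left out. Genes with a mean log2 value under 5.09 (the 40th percentile over the array, a signal of 30.3) were left out, and the other 12680 were tested with limma 3.58.1 in R 4.3.3 (lmFit, then eBayes with its intensity trend; two-sided; Benjamini-Hochberg). A difference is the necdin null minus the wild type mean. With 2 arrays a group, the smallest two-sided p of an exact permutation test is 0.333. The code was tested on simulated data. The number of arrays limits the precision.

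The 53 genes, their roles, the marker and related lists and the alternatives were chosen with earlier results of these data known. Named genes were Ndn; Mki67, Ccnb1, Cdk1, Plk1, Aurka, Foxm1 and Mybl2; every gene with groups apart; in each role the genes of smallest p and of largest difference; genes not tested; and the 2 genes of smallest p in each related list. Other genes are given by range, and Aurkb with both probe sets. Genes matched on signal were not drawn; shares of all tested genes stand in their place. Promoters are RefSeq's of GRCm38.p6; the array files name no genome build. Replicate numbers were not treated as pairing: deviations of arrays of the same number correlated at 0.11 over 12680 genes and at 0.20 over the 51 G2/M genes, with only 2 pairs.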

Additional observations from a re-analysis of the deposited data

How the results depend on the processing

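No G2/M gene was called under any of the 16 alternatives, and the count over all genes was 0 except for 3 with the replicate block, 0 with the block and quantile normalization together, and 2 to 4 (0 without necdin null replicate 2) on leaving out 1 array, a lone array being assumed to vary like the others; none of those called was among the 53. With the replicate block 2 of the 51 had an unadjusted limma p under 0.05, Mki67 and Espl1, against 5.32% of all genes. Without the intensity trend 0 of the 51 had one, so Mki67 did not, against 3.68% of all genes. With quantile normalization there were 2, Cdc20 and Mki67 (against 3.14%), and with the mean of all probe sets 2, Dlgap5 and Mki67 (against 3.67%). The block changed no call of a G2/M gene. Counts of genes lower with groups apart were 5 to 7 under changes of scaling, filter or probe sets (11.4% to 13.7%, against 16.8% to 23.2% of all genes). On leaving out 1 array they were 10 to 28 (19.2% to 54.9%, against 32.1% to 38.4%). Counts of genes higher with groups apart moved from 2 to 0 with median centring (0%, against 7.42% of all genes). They were 4 with quantile normalization, with or without the block (7.84%, against 12.8%), and 5 with cyclic loess (9.8%, against 13.2%). They were 8 with the mean of all probe sets (15.7%, against 14.6%) and 4 without _s_at, _x_at and _a_at probe sets (9.09%, against 13%). On leaving out 1 array they were 8 to 14 (15.7% to 26.9%, against 27.7% to 30.3%). The sign of a named difference turned for Spc24 with median centring (-0.0054). With the mean of all probe sets it turned for Bub1b (0.19), Kif11 (0.16), Kif22 (-0.13) and Spc25 (0.015). Without _s_at, _x_at and _a_at probe sets it turned for Kif22 (-0.44) and Spc25 (0.30). With 1 array left out it turned for Foxm1, from -0.54 without necdin null replicate 1 to 0.20 without its replicate 2. For Cdc25c the same arrays gave -1.37 and 0.23. Mybl2 ran from -0.13 to 0.0084 and was positive also at 0.0020. Kif22 gave -0.12 with wild type replicate 1 dropped, and 0.81 with the other array of that group dropped. For Kif11 another probe set, at -0.32 on all arrays, became the brightest. It gave 0.0057 with necdin null replicate 2 dropped, and -0.49 once wild type replicate 2 was dropped instead. On the main Kif11 probe set necdin null replicate 1 (526) lay below both wild type arrays (575 and 539). The sign of that probe set thus did not turn there. The cause of the other changes was not tested.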
